A study of Mus musculus with 48 samples.

Results

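The aryl hydrocarbon receptor gene Ahr, the gene of its partner Arnt and 4 genes that the activated receptor is known to switch on (Ahrr, Cyp1a1, Cyp1b1 and Tiparp) were followed in stretched and non-stretched C2C12 muscle cells. These are 6 of the 47480 gene symbols in the count tables. They were picked by name, with earlier results on stretching in these data already known, so all values for stretched against non-stretched cells are given here as a description without a test. C2C12 is an established mouse line, and every library comes from this 1 line, as myoblasts (undifferentiated, dividing muscle precursors) or as differentiated cells (cells that had been allowed to fuse into multinucleated muscle cells). A stretched group had been deformed in repeated equibiaxial cycles on flexible collagen-coated plates (Flexcell system) for 1, 3 or 6 h, and each time has its own non-stretched group, kept on the same plates without deformation. The labels name no drug or genetic change in any group. There are 12 groups of 4 libraries, 48 in all. Sample titles also carry a code (B27, for example), taken here as the code of the independent experiment that the cultures came from. In myoblasts, replicates 7 and 8 have the code B27 and replicates 9 and 10 the code B31. In differentiated cells replicates 7 and 8 have the code B25 and replicates 9 and 10 the code B28, except in stretched cells at 1 h, which have replicates 4, 7, 8 and 9 (replicate 4 alone has the code B17). Each code therefore gives 2 libraries of a group, taken as from 1 experiment, outside that 1 group. For differentiated cells the study's methods report 3 independent experiments, giving 2, 1 and 1 samples. Only the stretched group at 1 h has that division, so reading codes as experiments is uncertain for differentiated cells.

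The libraries hold between 48447318 and 77080730 counts, and all 72 pairs of libraries of 1 group differed by more than sampling noise (chi-square of the counts over genes, lowest value per degree of freedom 2.697). Differentiated libraries without stretching had between 47265 and 62300 counts of Myog (a regulator of muscle differentiation) and myoblast libraries between 39 and 178. Ckm, Myh3, Mef2c and Tnnt1, genes of muscle fibers, were likewise near 0 in myoblasts, while Myf5, Id3 and Mki67 were higher there. The proliferation gene Mki67 still had between 71.2 and 145 CPM (counts scaled to library size) in differentiated cells, against 487 to 663 CPM in myoblasts, so this marker of dividing cells was not absent there. In such bulk samples fewer cells expressing a gene and less RNA of it per cell cannot be told apart. At 1 h of stretching the early response gene Fos rose by 2.16 on the log2 scale in myoblasts (edgeR adjusted p = 1.51e-06) and by 2.76 in differentiated cells (edgeR adjusted p = 0.0302), or 2.04 without replicate 4 (edgeR adjusted p = 1.90e-04). Egr1, another early response gene, rose by 1.396 in myoblasts (edgeR adjusted p = 2.09e-09). In differentiated cells Egr1 differed by 1.33 and was not called (edgeR adjusted p = 0.0761), and was called without replicate 4 at 0.88 (edgeR adjusted p = 7.14e-06). In stretched differentiated cells at 1 h, replicate 4 had the highest value of its group for Ahrr, Cyp1a1 and Tiparp, and the pooled values of these 3 genes are given with and without it.

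The receptor is a protein of the bHLH-PAS family that waits in the cytoplasm in a chaperone complex with HSP90 until it binds a small aromatic molecule, such as dioxin, a plant indole or a breakdown product of tryptophan. It then enters the nucleus, pairs with ARNT, and binds short DNA sites with the core GCGTG (xenobiotic response elements, in full TNGCGTG). CYP1A1 and CYP1B1 are enzymes that oxidize such ligands and so help remove them. AHRR, a repressor that competes for ARNT, and TIPARP, an enzyme that attaches ADP-ribose to the receptor, both act back on it. The RNA of these target genes is therefore widely used as a readout of receptor activity, although each also has other regulators.

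The region around the start of each target gene and of Arnt is shown because the receptor's site can be read in it. Windows run from 250 bases before to 50 bases after the start in RefSeq (GRCm38.p6), and capitals mark each GCGTG, or CACGC where the site lies on the opposite strand. Of the 6 genes, 5 had a window in the table used. The Ahrr window (chr13:74292282-74292581, minus strand) holds 3 matches, at 107, 82 and 27 bases before the start.
Ahrr: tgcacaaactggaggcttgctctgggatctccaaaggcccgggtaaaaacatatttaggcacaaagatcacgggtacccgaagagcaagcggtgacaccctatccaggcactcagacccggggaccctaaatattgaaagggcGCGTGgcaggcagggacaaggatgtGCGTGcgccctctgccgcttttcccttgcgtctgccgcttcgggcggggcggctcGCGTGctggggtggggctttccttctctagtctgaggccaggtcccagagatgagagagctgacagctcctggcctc
The Cyp1a1 window (chr9:57697363-57697662, plus strand) holds 1 match, 54 bases before the start.
Cyp1a1: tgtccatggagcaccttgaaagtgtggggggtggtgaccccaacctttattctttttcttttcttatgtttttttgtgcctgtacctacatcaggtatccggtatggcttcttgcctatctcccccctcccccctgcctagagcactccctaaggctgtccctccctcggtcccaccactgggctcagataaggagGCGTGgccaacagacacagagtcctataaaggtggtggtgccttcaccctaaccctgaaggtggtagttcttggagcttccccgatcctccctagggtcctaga
The Cyp1b1 window (chr17:79715012-79715311, minus strand) holds 1 match on the opposite strand, 76 bases before the start.
Cyp1b1: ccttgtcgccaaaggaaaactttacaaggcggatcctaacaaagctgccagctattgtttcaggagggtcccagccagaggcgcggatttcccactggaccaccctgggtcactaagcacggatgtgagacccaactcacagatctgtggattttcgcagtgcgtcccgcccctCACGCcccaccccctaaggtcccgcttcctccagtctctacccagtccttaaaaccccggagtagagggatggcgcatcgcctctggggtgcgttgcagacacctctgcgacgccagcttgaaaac
The Tiparp window (chr3:65528197-65528496, plus strand) also holds 1 match on the opposite strand, 170 bases before the start.
Tiparp: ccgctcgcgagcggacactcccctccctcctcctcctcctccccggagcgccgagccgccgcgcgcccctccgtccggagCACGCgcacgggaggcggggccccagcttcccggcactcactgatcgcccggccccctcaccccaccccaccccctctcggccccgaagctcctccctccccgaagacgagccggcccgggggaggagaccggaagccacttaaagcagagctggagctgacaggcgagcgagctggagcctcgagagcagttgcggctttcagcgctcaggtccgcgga
The Arnt window (chr3:95434140-95434439, plus strand) holds 1 match, 29 bases before the start.
Arnt: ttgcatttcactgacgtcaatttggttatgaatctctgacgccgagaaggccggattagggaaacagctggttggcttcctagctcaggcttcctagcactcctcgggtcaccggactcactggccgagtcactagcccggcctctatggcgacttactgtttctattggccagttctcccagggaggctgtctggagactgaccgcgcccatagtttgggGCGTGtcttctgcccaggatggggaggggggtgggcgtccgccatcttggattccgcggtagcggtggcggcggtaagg
Across 32851 such windows of the mouse genome 32.4% hold GCGTG on either strand and 11.1% hold it more than once, so 1 match is common. The longer form TNGCGTG, which 5.07% of windows hold, was found in the Ahrr window alone among these 5. A match is a string of letters and not evidence of binding, and no match says only that the letters are not in this window.

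The genes lie on mouse chromosomes 12 (Ahr, 35497974 to 35535038, minus strand), 3 (Arnt, 95434388 to 95497240, and Tiparp, 65528410 to 65555518, both plus strand), 13 (Ahrr, 74211118 to 74292331, minus strand), 9 (Cyp1a1, 57687928 to 57703824, plus strand) and 17 (Cyp1b1, 79701537 to 79715061, minus strand) of GRCm38/mm10 in GENCODE vM21. Other genes hold 5.5% of the stretches of 31 bases in Cyp1a1 and at most 1.18% of those in the other 5. Levels can be compared between genes only per length, and in non-stretched differentiated cells Cyp1b1 led with 44.4 ± 9.44 CPM per kb of exon (SD, n = 12). Tiparp followed with 19.7 ± 2.26, Arnt with 11.3 ± 0.246 and Ahr with 10.03 ± 0.439 CPM per kb, and Cyp1a1 (0.744 ± 0.612) and Ahrr (0.742 ± 0.226) were lowest, with levels closer to each other than their spread. In non-stretched myoblasts Tiparp (22.5 ± 2.87 CPM per kb) and Cyp1b1 (21.3 ± 8.995) did not differ beyond their spread, and Arnt (6.51 ± 0.211), Ahr (4.35 ± 0.319), Cyp1a1 (2.91 ± 2.21) and Ahrr (1.51 ± 0.493) came after them. The wide spread of Cyp1a1 and Cyp1b1 goes with a split between the experiment codes, which is described next.

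Without stretching, the targets were at different levels in the 2 experiments of each stage, and the receptor and its partner were nearly level. In myoblasts Cyp1a1 was between 12.7 and 14.7 CPM in the 6 B27 libraries (median 14.2) and between 1.83 and 2.49 CPM in the 6 B31 libraries (median 2.30). Every B27 library was above every B31 library, and edgeR gave a log2 difference of -2.65 (B31 minus B27, SE 0.0657, adjusted p = 4.79e-13), a 6.26-fold lower level in B31. Cyp1b1 was between 167 and 183 CPM in B27 and between 67.0 and 80.2 CPM in B31, a log2 difference of -1.23 (SE 0.0279, edgeR adjusted p = 2.57e-13). Ahrr was between 17.04 and 20.3 CPM in B27 and between 9.30 and 10.48 CPM in B31, a log2 difference of -0.91 (SE 0.0488, edgeR adjusted p = 1.97e-08). Tiparp went the same way in a narrower range, from 99.9 to 117 CPM in B27 and from 83.7 to 92.3 CPM in B31, and its log2 difference of -0.32 (SE 0.0276, edgeR adjusted p = 4.07e-06) was under the limit of 0.58 used for a call. Ahr was 0.15 higher in B31 on the log2 scale (SE 0.0304, edgeR adjusted p = 0.0108), again under that limit, and Arnt differed by 0.04 (SE 0.0232, edgeR adjusted p = 0.416). With an adjusted p under 0.05 and a log2 difference of at least 0.58 in size, 3 of the 6 genes were called lower in B31, against 0.138% of the 15213 genes tested. All 4 targets had groups that did not overlap in that direction, against 1.2% of all genes.

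Differentiated cells showed the same order of their 2 experiments. Cyp1a1 was between 3.01 and 5.29 CPM in the 6 B25 libraries (median 3.17) and between 0.189 and 0.776 CPM in the 6 B28 libraries (median 0.594). The log2 difference (B28 minus B25) was -2.71 (SE 0.181, edgeR adjusted p = 1.47e-06), a 6.53-fold lower level in B28, and the groups did not overlap. Ahrr was between 7.75 and 10.02 CPM in B25 and between 4.29 and 5.39 CPM in B28, a log2 difference of -0.82 (SE 0.0655, edgeR adjusted p = 5.47e-06). Cyp1b1 was between 290 and 322 CPM in B25 and between 174 and 226 CPM in B28. Its log2 difference of -0.57 (SE 0.0510, edgeR adjusted p = 1.27e-05) was just under the limit for a call, and was past it without non-stretched replicate 7 or 9 of 1 h or replicate 10 of 6 h. Tiparp differed by -0.30 (SE 0.0288, edgeR adjusted p = 2.87e-05), Ahr by -0.07 (edgeR adjusted p = 0.0704) and Arnt by -0.02 (edgeR adjusted p = 0.528). So 2 of the 6 genes were called lower in B28, against 0.5% of the 15813 genes tested, and again all 4 targets had groups that did not overlap, against 3.08% of all genes. With all stretched libraries of the stage added, the difference of Ahrr was -0.26 and was not called (edgeR adjusted p = 0.324). The libraries of a code share their experiment, so these p-values compare the particular experiments and do not measure how far other experiments would differ. The same non-stretched libraries enter the comparisons with stretched cells, which were known for each code when the genes were chosen. The p-values and shares for the codes, in both stages, are therefore a description and not an independent test.

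**Figure D1:**
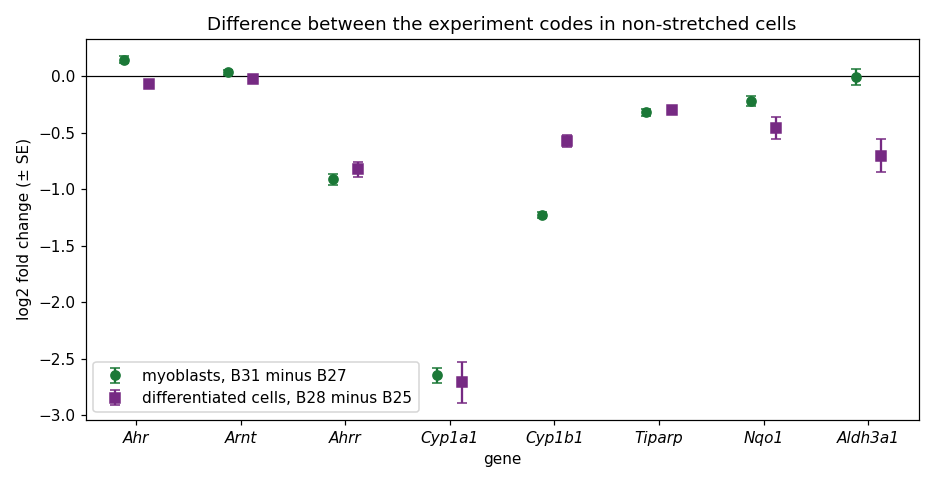
Log2 difference (± SE, edgeR) between the experiment codes in non-stretched cells, 6 libraries against 6, for the 6 genes and for Nqo1 and Aldh3a1. Cyp1a1 is lowest in both stages (-2.65 and -2.71), Ahrr, Cyp1b1 and Tiparp are also below 0 in both, and Ahr and Arnt lie near 0.

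Ahr itself kept to a narrow range in each group, and 1 of its comparisons stood out. In differentiated cells at 6 h the stretched libraries had 41.3, 44.7, 47.3 and 45.5 CPM (replicates 7 to 10) and the non-stretched ones 62.9, 62.4, 58.4 and 58.6 CPM. All stretched libraries were below all non-stretched ones, as in 12.2% of the 15433 genes tested at that time, with a log2 fold change of -0.44 (SE 0.0449), or -0.54 within B25 and -0.33 within B28. The other 5 differentiated groups had means from 60.6 to 66.5 CPM, and neighbors in that order did not differ beyond their spread. Every differentiated group lay above every myoblast group, whose means ran from 24.9 to 32.2 CPM. In myoblasts the stretched libraries had 26.7, 29.0, 31.6 and 29.4 CPM at 1 h against 24.0, 24.9, 26.3 and 26.6 CPM without stretching, and 33.8, 33.3, 31.4 and 30.1 CPM at 3 h against 26.5, 25.1, 29.7 and 27.7 CPM. The groups did not overlap at either time, as in 5.32% (1 h) and 17.1% (3 h) of all genes in that direction, with log2 fold changes of 0.20 (SE 0.0527) and 0.23 (SE 0.0522). At 6 h the order was turned and the groups overlapped (stretched 23.6 to 25.8 CPM, non-stretched 25.3 to 30.5 CPM, log2 fold change -0.14, SE 0.0536). No value for Ahr reached 0.58 in size.

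Arnt, whose protein is also the partner of the hypoxia factors, was steadier still. Its means lay between 46.4 and 54.1 CPM over the 6 myoblast groups and between 84.1 and 91.1 CPM over the 6 differentiated groups. Stretched myoblasts at 1 h had 47.0 to 47.4 CPM and non-stretched ones 49.2 to 52.8 CPM, a log2 fold change of -0.11 (SE 0.0310). At 6 h these were 44.1 to 48.4 CPM against 50.3 to 52.7 CPM (-0.14, SE 0.0332). Both pairs of groups were apart without overlap, as for 8.03% and 16.3% of all genes in that direction. In differentiated cells at 1 h the groups were also apart (3.91% of all genes), with stretched libraries from 81.4 to 87.7 CPM and non-stretched ones from 88.1 to 92.7 CPM (-0.10, SE 0.0379, or -0.08 without replicate 4). In the other comparisons the size of the log2 fold change was at most 0.05.

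**Figure D2:**
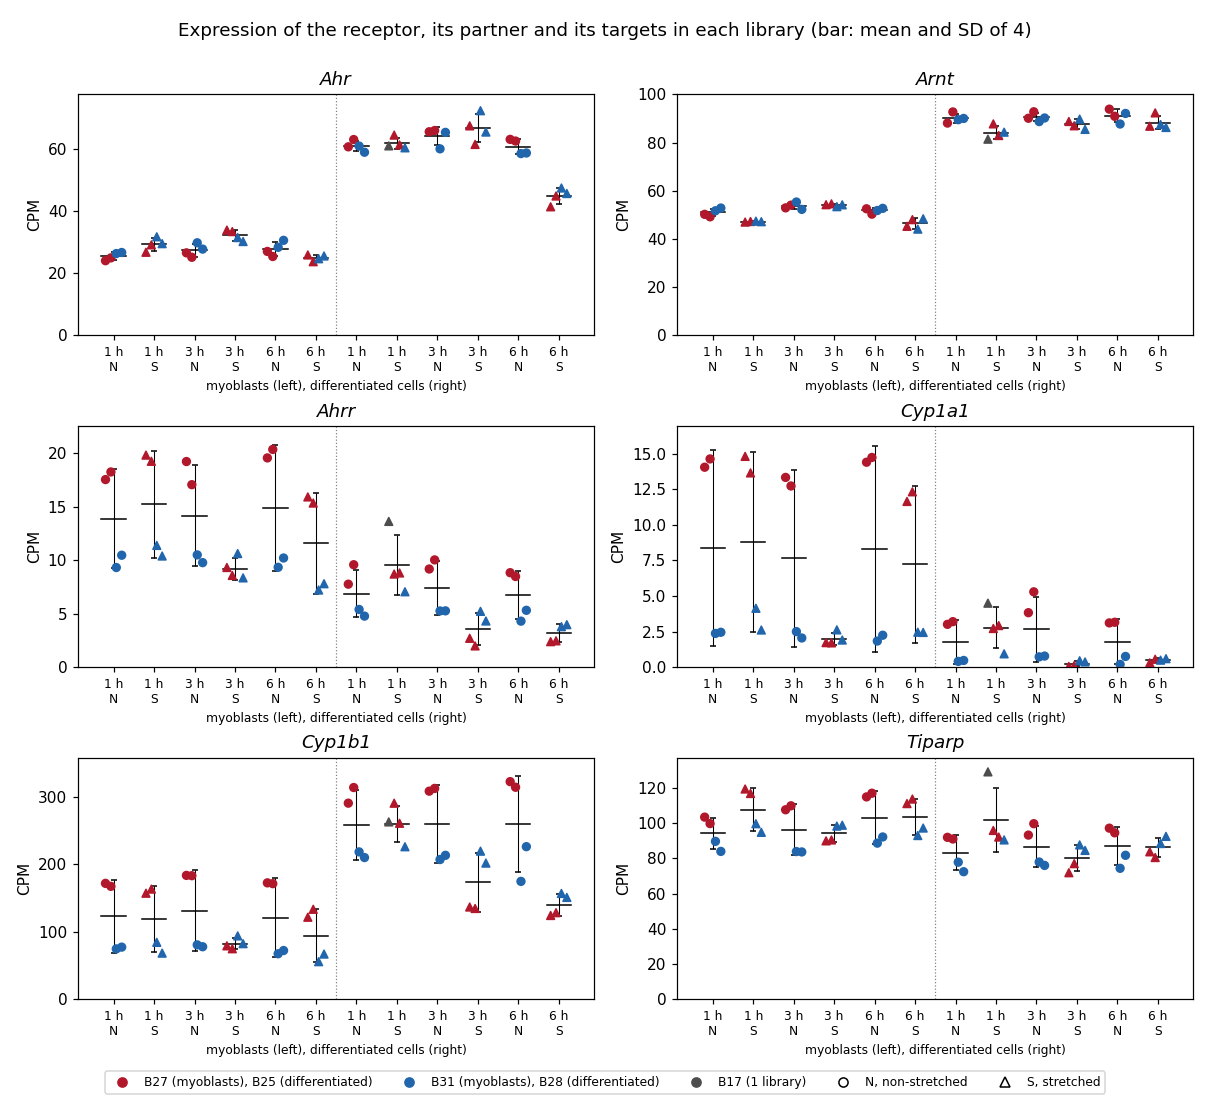
CPM of each gene in each of the 48 libraries (points: circles non-stretched, triangles stretched; colors by experiment code; line and bar: mean and SD of the 4 libraries of a group). In the targets the red points (B27 and B25) lie above the blue ones (B31 and B28) in all non-stretched groups, and come down to or below them in stretched myoblasts at 3 h and in stretched differentiated cells at 3 h and 6 h.

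Cyp1a1, the target with the widest range, split by experiment at 3 h of stretching. In myoblasts the stretched B27 libraries had 1.72 and 1.70 CPM against 13.3 and 12.7 CPM without stretching, a log2 difference of -2.92. The stretched B31 libraries had 2.62 and 1.902 CPM against 2.49 and 2.05 CPM, a difference of -0.02. All stretched libraries were thus at the low level that B31 already had without stretching. Over the 4 libraries a group the log2 fold change was -1.96 (SE 0.512). The fits behind pooled values had no term for the code, so their SE includes the difference between the codes. The ratio of non-stretched to stretched counts, scaled to library size, was 7.59 in B27 (exact 95% interval of counting error 6.60 to 8.77) and 0.991 in B31 (0.8285 to 1.19).

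In differentiated cells at 3 h the stretched B25 libraries had 3 and 7 counts of Cyp1a1 (0.0489 and 0.115 CPM) and the non-stretched ones 209 and 310 counts (3.82 and 5.29 CPM). The ratio of the scaled counts was 56.1, with an exact 95% interval from 30.3 to 118. B28 had 33 and 19 counts with stretching (0.446 and 0.362 CPM) and 46 and 54 without (0.720 and 0.776 CPM), a ratio of 1.82 (1.29 to 2.60). Here the stretched B25 libraries were below all 4 B28 libraries, and all stretched libraries were below all non-stretched ones (13.5% of all genes). The pooled log2 fold change was -3.39 (SE 0.776). These intervals cover counting error only.

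After 6 h the stages differed in where the split was seen. Stretched differentiated B25 libraries had 0.297 and 0.552 CPM of Cyp1a1 against 3.11 and 3.15 CPM, a log2 difference of -2.90, while B28 had 0.488 and 0.592 CPM against 0.189 and 0.749 CPM, with no direction that both libraries shared. In myoblasts the stretched B27 libraries were closer to their non-stretched level than at 3 h but still below it, with 11.6 and 12.3 CPM against 14.4 and 14.7 CPM (-0.28), and B31 had 2.45 and 2.44 CPM against 1.83 and 2.24 CPM (0.27). The pooled log2 fold changes were -1.88 (SE 0.682) in differentiated cells and -0.19 (SE 0.693) in myoblasts. At 1 h Cyp1a1 of stretched and non-stretched B27 libraries lay in 1 range (13.6 to 14.8 CPM), as it nearly did in B25 (2.71 and 2.92 against 3.01 and 3.19 CPM). The codes with the low level had higher values with stretching at 1 h, 4.13 and 2.61 against 2.37 and 2.45 CPM in B31 and 0.933 CPM in the single stretched B28 library against 0.401 and 0.467 CPM. Replicate 9, whose sample title spells the B31 code differently from its column name, had the 4.13 CPM, and without it the B31 difference was 0.11 in place of 0.45. Replicate 4 (B17), which has no non-stretched partner, had 4.49 CPM, above every other differentiated library at 1 h. The pooled log2 fold change at 1 h was 0.05 (SE 0.649) in myoblasts and 0.66 (SE 0.657) in differentiated cells, or 0.33 without replicate 4.

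**Figure D3:**
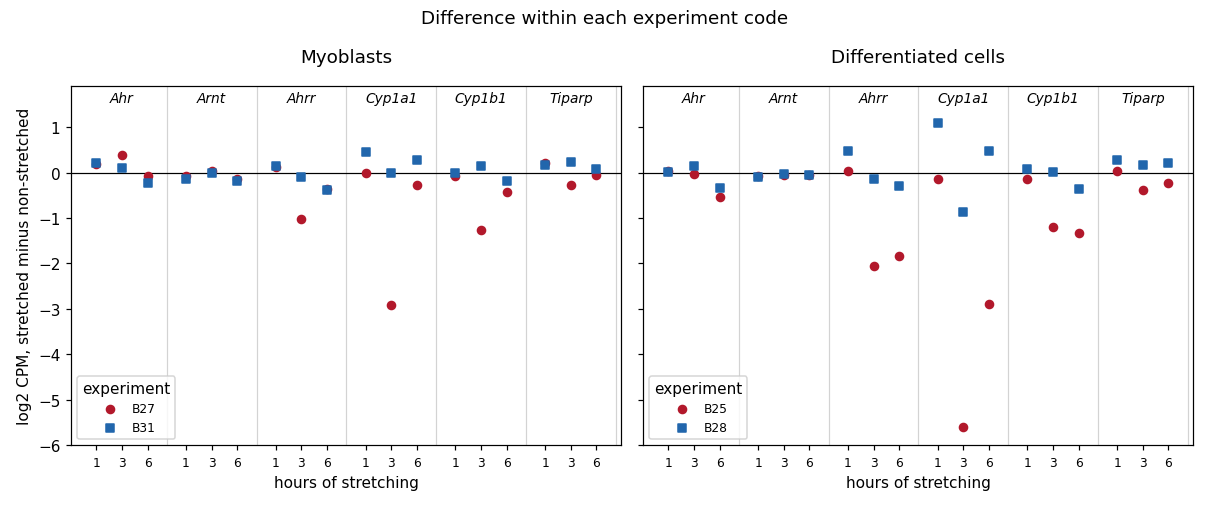
Log2 CPM of stretched minus non-stretched cells within each experiment code at 1, 3 and 6 h, each point the difference of 2 means of 2 libraries (1 stretched library in B28 at 1 h). Points of B27 and B25 reach -2.92 and -5.61 for Cyp1a1 at 3 h, where B31 and B28 lie at -0.02 and -0.87. Ahr and Arnt lie nearer to 0, with -0.54 as the widest value (Ahr in B25 at 6 h).

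Ahrr, the repressor, followed the same course over a narrower range. In myoblasts at 3 h it had 9.31 and 8.56 CPM in stretched B27 libraries against 19.2 and 17.04 CPM, a log2 difference of -1.02, and 10.6 and 8.34 CPM in stretched B31 libraries against 10.48 and 9.76 CPM (-0.10). At 6 h both codes were lower with stretching by a like amount, 15.9 and 15.3 against 19.5 and 20.3 CPM in B27 (-0.35) and 7.20 and 7.79 against 9.32 and 10.2 CPM in B31 (-0.38). Of the targets in myoblasts, this was the closest match between the experiments in a downward shift. In differentiated cells the stretched B25 libraries had 2.69 and 1.98 CPM at 3 h against 9.17 and 10.02 CPM (-2.05), and 2.38 and 2.46 CPM at 6 h against 8.82 and 8.46 CPM (-1.83). B28 moved by -0.15 at 3 h (5.21 and 4.31 against 5.25 and 5.26 CPM) and by -0.30 at 6 h (3.78 and 3.97 against 4.29 and 5.31 CPM). Stretched libraries were below non-stretched ones in both experiments at these times, but at 3 h by 4.13-fold in B25 and 1.11-fold in B28. Pooled log2 fold changes were -0.63 (SE 0.176) in myoblasts at 3 h, and -1.05 (SE 0.30004) and -1.09 (SE 0.249) in differentiated cells at 3 h and 6 h. At 1 h replicate 4 of stretched differentiated cells had 13.6 CPM, the highest of the stage, and the log2 fold change of that time was 0.47 with it and 0.26 without it.

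Cyp1b1, the most abundant target in differentiated cells, repeated the pattern with high counts (from 3560 to 19050 per library). Stretched B27 myoblasts at 3 h had 78.8 and 74.4 CPM against 183 CPM in both non-stretched libraries, a log2 difference of -1.26, and B31 had 93.5 and 82.0 CPM against 80.2 and 77.4 CPM (0.15). In differentiated cells B25 had 136 and 134 CPM at 3 h against 308 and 312 CPM (-1.20), and 124 and 128 CPM at 6 h against 322 and 314 CPM (-1.34). B28 had 219 and 202 CPM at 3 h against 207 and 213 CPM (0.00), and 157 and 151 CPM at 6 h against 174 and 226 CPM (-0.37). Thus the experiment with the higher level was lower with stretching by 2.39-fold in myoblasts and by 2.29-fold and 2.53-fold in differentiated cells, and the other one by at most 1.29-fold. In myoblasts at 6 h the differences were -0.43 in B27 (121 and 133 against 172 and 171 CPM) and -0.19 in B31 (55.3 and 66.5 against 67.0 and 71.8 CPM). Pooled log2 fold changes were -0.68 (SE 0.238) in myoblasts at 3 h, -0.59 (SE 0.185) in differentiated cells at 3 h and -0.89 (SE 0.170) at 6 h. At 1 h they were -0.06 (SE 0.335) in myoblasts and 0.01 (SE 0.131) in differentiated cells, where it was 0.01 (SE 0.144) without replicate 4 too.

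Tiparp differed in opposite directions in the experiments of a stage at 3 h. In myoblasts at 3 h stretched B27 libraries had 90.1 and 90.6 CPM against 108 and 110 CPM (-0.27), and stretched B31 libraries 98.4 and 99.0 CPM against 83.9 and 83.7 CPM (0.24). Differentiated cells at 3 h had 71.9 and 77.1 against 93.3 and 99.8 CPM in B25 (-0.37) and 87.7 and 84.6 against 78.0 and 76.0 CPM in B28 (0.16). At 6 h they had 83.8 and 80.6 against 97.3 and 94.6 CPM in B25 (-0.22) and 88.5 and 92.6 against 74.4 and 81.8 CPM in B28 (0.21). In each of these the order of the experiments was the reverse in stretched cells, and the pooled log2 fold change was small, -0.04 (SE 0.0775), -0.11 (SE 0.0888) and -0.01 (SE 0.0783). At 1 h Tiparp was higher with stretching in both myoblast experiments (120, 117, 99.8 and 94.9 CPM against 104, 99.9, 89.8 and 84.0 CPM, 0.22 in B27 and 0.16 in B31). In differentiated cells at 1 h the pooled log2 fold change was 0.29 (SE 0.121) with replicate 4, which had 129 CPM, and 0.16 (SE 0.0800) without it.

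Read with the limits used for calls over all genes, the members past them were Ahrr, Cyp1a1 and Cyp1b1 in myoblasts at 3 h, all lower, where 1.25% of 14813 genes were called lower. The same 3 genes were past them in differentiated cells at 3 h (0.741% of 15513 genes called lower), and Ahrr and Cyp1b1 at 6 h (1.52% of 15433 genes). No member was past them in myoblasts at 1 h (1.25% of 14938 genes called in either direction) or 6 h (2.17%), nor in differentiated cells at 1 h (0.27% of 15538 genes). Since the genes were chosen with these results known, nothing is read from the counts. At 3 h Cyp1b1 was no longer past them without replicate 7 or 8 of either group or stretched replicate 10 in both stages, nor without stretched replicate 9 in myoblasts, nor with DESeq2 in both stages. Ahrr was no longer past them without non-stretched replicate 7 or 8 in both stages, nor without stretched replicate 7 or 8 in differentiated cells. At 6 h in differentiated cells Cyp1a1 was past them without non-stretched replicate 9 and with no filter on low counts. Within the codes, a shift of at least 0.58 without overlap was seen for Ahrr, Cyp1a1 and Cyp1b1 in stretched B27 cells at 3 h, where 2.03% of genes were so much lower, and in stretched B25 cells at 3 h (2.32%) and 6 h (4.1%). In B31 no member had such a shift at any time, and in B28 Cyp1a1 alone had one, lower at 3 h (2.6% of genes) and higher at 1 h (2.1%). Whether the shift of a gene differed between the codes was not tested, because it was part of what was known when the genes were chosen.

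**Figure D4:**
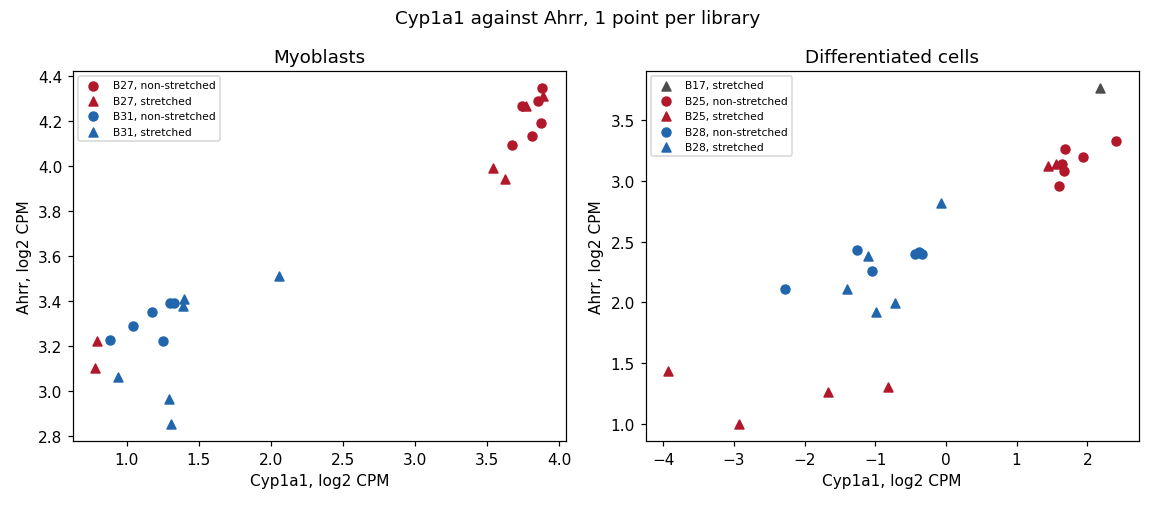
Log2 CPM of Ahrr against Cyp1a1, 1 point per library, by experiment code and stretching. In myoblasts the B27 libraries at 3 h of stretching lie with the B31 libraries at the low end, and in differentiated cells the stretched B25 libraries of 3 h and 6 h have the lowest Ahrr of all.

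The targets varied together across libraries. Over the 24 myoblast libraries Pearson's r of log2 CPM was 0.96 between Ahrr and Cyp1a1, 0.96 between Ahrr and Cyp1b1 and 0.87 between Cyp1a1 and Tiparp. Over the 24 differentiated libraries these were 0.90, 0.94 and 0.78. With the mean of each experiment removed they were 0.90, 0.91 and 0.72 in myoblasts and 0.91, 0.97 and 0.78 in differentiated cells. Ahr had negative coefficients with all 4 targets in myoblasts (-0.60 with Cyp1a1) and positive ones in differentiated cells (0.62 with Cyp1b1), where both were low at 6 h of stretching. The libraries of a code share their experiment and the groups share codes, so these values describe the libraries and carry no test. The genes were also chosen with their shifts in these libraries known.

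Of genes that averaged 100 counts or more, those whose log2 CPM was most like Ahrr in myoblasts were Inhbb (a subunit of activins and inhibins, r = 0.97), Cyp1b1 and Cyp1a1, out of 11400 compared. Those most like Cyp1a1 were Ahrr, Plscr2 (r = 0.95) and Tmem45a (r = 0.95), and those most like Cyp1b1 were Ahrr, Inhbb (r = 0.95) and Cyp1a1. For Tiparp they were Shank2 (r = 0.90), Cyp1a1 and Blnk (r = 0.87). In differentiated cells, out of 11870 or 11871 compared, Cyp1b1, Inhbb (r = 0.93) and Nhs (r = 0.92) were most like Ahrr, and Ahrr, Nhs (r = 0.89) and Gm7361 (r = 0.87) most like Cyp1a1. Inhbb (r = 0.96), Ahrr and Ralgapa2 (r = 0.90) were most like Cyp1b1, and Mmd (r = 0.87), Tmem45a (r = 0.84) and Cldnd1 (r = 0.83) most like Tiparp. By Pearson's r another of these genes stood among the 3 nearest to Ahrr, Cyp1a1 and Cyp1b1 in both stages, and Inhbb stood beside Ahrr and Cyp1b1 in both. By Spearman's rank correlation Inhbb was among the 3 nearest to Ahrr in myoblasts and to Cyp1b1 in differentiated cells. It was then not among those of Cyp1b1 in myoblasts (Smox, Ifitm1 and Ahrr) or of Ahrr in differentiated cells (Cyp1b1, Nkd2 and Nhs). With the experiment means removed Inhbb kept its place by Pearson's r beside Ahrr and Cyp1b1 in both stages. None of the other targets was then among the 3 nearest to Ahrr in myoblasts (Inhbb, Nefl and Plscr2), and for Cyp1a1 in differentiated cells the nearest was Adh7 (an alcohol dehydrogenase, r = 0.96). The members were chosen with their shifts in these same libraries known, so the likeness among them is a description and not independent support.

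Time in culture without stretching made little difference to the 6 genes. Between 1 h and 6 h 0 of the 6 genes were called by edgeR in either stage, and 0 by DESeq2, where edgeR called 0.263% of all genes in myoblasts and 0.19% in differentiated cells. At an unadjusted p under 0.05 there were 2 in myoblasts and 0 in differentiated cells, against 17.6% and 20.8% of all genes. The 2 were Ahr (log2 difference 0.13, SE 0.0370, edgeR adjusted p = 0.0559) and Tiparp (0.13, SE 0.0336, edgeR adjusted p = 0.0369). Cyp1a1 differed by -0.05 (SE 0.0758) in myoblasts and 0.04 (SE 0.218) in differentiated cells, in a fit with 1 code difference for all times. The split between the experiments was seen at 1 h and at 6 h in the means of each code. These were 14.3 and 14.6 CPM in B27 against 2.41 and 2.04 CPM in B31, and 3.10 and 3.13 CPM in B25 against 0.434 and 0.469 CPM in B28.

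The stages differed in 5 of the 6 genes. In non-stretched differentiated cells Ahr was 2.26-fold and Arnt 1.70-fold higher than in myoblasts, at 61.8 ± 2.704 against 26.8 ± 1.97 CPM and 90.5 ± 1.97 against 52.1 ± 1.69 CPM (SD, n = 12). The log2 differences were 1.18 (SE 0.0315, edgeR adjusted p = 8.59e-23) and 0.77 (SE 0.0174, edgeR adjusted p = 1.95e-24), with no overlap (34% of all genes in that direction). Cyp1b1 rose with them, by 1.03 (SE 0.191, edgeR adjusted p = 1.88e-05), while Cyp1a1 fell by 2.04 (SE 0.496, edgeR adjusted p = 4.54e-04) and Ahrr by 1.07 (SE 0.178, edgeR adjusted p = 3.91e-06). Tiparp was lower by 0.22 (SE 0.0651, edgeR adjusted p = 0.00259), under the limit. Over all 16582 genes 27.1% were called higher and 24.9% lower, so a difference between the stages is common. For the 4 targets the libraries of the stages overlap, and each stage holds a higher and a lower experiment. No experiment code is in both stages, so stage and experiment cannot be told apart here. Per the study's methods myoblasts grew in fetal bovine serum, differentiation took place in horse serum, and the number of cells plated also differed. These conditions cannot be told apart from stage either.

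Among 49 other genes of the pathway, 41 had enough counts to be tested for stretching, and few were called. The list was drawn up from textbook knowledge with earlier results of these data known. It holds partners of the receptor in the cytoplasm, related bHLH-PAS factors, coregulators, other reported targets and enzymes that supply ligands. In differentiated cells at 3 h 2 of 41 were called, both lower (edgeR called 0.741% of all genes lower). Aldh3a1, an aldehyde dehydrogenase and reported target, differed by -0.81 on the log2 scale (edgeR adjusted p = 0.0380), and Il4i1, an enzyme that makes receptor ligands from tryptophan, had -0.73 (edgeR adjusted p = 0.0222) with a mean of 25.9 counts. Within the codes Aldh3a1 had 39.5 CPM with stretching and 110 without in B25, and 59.0 and 63.9 CPM in B28, far apart in B25 and close in B28. Its call was lost without replicate 7 of either group, non-stretched replicate 8 or stretched replicate 8 or 10 (highest edgeR adjusted p = 0.105). That of Il4i1 was lost without replicate 7 of either group, non-stretched replicate 9 or stretched replicate 8. At 6 h 2 of 41 were called higher in differentiated cells (0.518% of all genes). These were Hsp90aa1, the inducible form of the chaperone that holds the receptor, at 0.59 (edgeR adjusted p = 0.00325), and Serpinb2, an inhibitor of plasminogen activators and a reported target, at 1.37 (edgeR adjusted p = 0.00989) with a mean of 13.6 counts. Hsp90aa1 was under 0.58 without stretched replicate 7 or 9 or non-stretched replicate 9. In the other 4 comparisons edgeR called 0 of 41, with 11, 21 and 22 genes at an unadjusted p under 0.05 in myoblasts at 1, 3 and 6 h and 8 in differentiated cells at 1 h, against 19%, 41.5%, 38.9% and 8.92% of all genes. DESeq2 called 0 in myoblasts at each time and 2 in differentiated cells at 1 h, Ereg (a growth factor of the EGF family) and Klf6 (a zinc finger factor that partners the receptor), both higher. Ereg was also called by edgeR in myoblasts at 1 h with any 1 of 3 libraries left out (replicates 7 and 8 of the non-stretched cells and 10 of the stretched cells), and in differentiated cells at 1 h without replicate 4. Ereg and Klf6 were named after their values were seen.

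The median log2 fold change of the 41 genes lay between 0.01 and 0.04 in the 6 comparisons and that of all genes between -0.01 and 0.00. By group, in differentiated cells at 3 h the 15 other reported targets had a median of -0.25, with 6 of them lower and 2 higher at an adjusted p under 0.05 whatever the fold, while 22.2% of all genes passed that adjusted p in either direction. In the other 5 comparisons the median of these 15 lay between -0.07 (myoblasts at 3 h) and 0.21 (myoblasts at 1 h). Nqo1, a quinone reductase that the receptor and NRF2 both induce, differed by -0.56 (SE 0.208, edgeR adjusted p = 0.0809) at that time, with 41.6 against 91.1 CPM in B25 and 62.7 against 62.8 CPM in B28. Without stretched replicate 9 it was called (-0.75, edgeR adjusted p = 0.0242). In the other 5 comparisons it was between -0.08 and 0.21, with edgeR adjusted p from 0.258 to 0.969. Between the experiment codes without stretching, Aldh3a1 was lower in B28 than in B25 by 0.70 on the log2 scale (edgeR adjusted p = 0.00592), and in myoblasts Il4i1 was lower in B31 by 0.80 (edgeR adjusted p = 0.0241). Each was the only 1 of 41 genes called lower, against 0.5% and 0.138% of all genes. In B28 1 other gene was called higher, and in B31 0 were. Aldh3a1 in non-stretched myoblasts had 22.8, 23.5 and 24.9 CPM in B27 (1, 3 and 6 h) and 24.5, 26.3 and 20.5 CPM in B31. Nqo1 was lower in the same experiments as the targets, by 0.22 in myoblasts (edgeR adjusted p = 0.00764) and 0.46 in differentiated cells (edgeR adjusted p = 0.00724), under the limit for a call. Between the stages 10 of 42 genes were called higher and 13 lower in differentiated cells, next to 27.1% and 24.9% of all genes. With time in culture 0 of 41 were called by edgeR in either stage. At an unadjusted p under 0.05 there were 15 in myoblasts and 7 in differentiated cells, against 17.6% and 20.8% of all genes.

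The experiment code moved with the levels of the targets before stretching and with the size of their differences after it, and its part in the pooled values was not tested.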

How the data were processed

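C2C12 libraries were prepared from RNA extracted with a column kit by a stranded mRNA method, although the molecule field of the sample labels reads nuclear RNA. The authors aligned reads to mm10 with STAR, quantified them with Salmon and deposited whole-number counts per gene symbol, 1 table per stage, with 47480 symbols each. Per the labels, 12 groups of 4 libraries were formed. All sample columns were used (0 columns left out), and 0 rows lacked a gene name. The members and lists were chosen with earlier results of these data known.

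Counts were analyzed with edgeR 4.0.16 (R 4.3.3, limma 3.58.1): filterByExpr, TMM normalization and quasi-likelihood tests on the 8 libraries of each stretch comparison, on the 12 non-stretched libraries of a stage for experiment codes and for time (each with the other as covariate), and on all 24 non-stretched libraries for stage. The main fits of the stretch comparisons had no term for the experiment code, so their SE and adjusted p include the difference between the codes. Adjusted p is Benjamini-Hochberg over all genes tested. Calls needed an adjusted p under 0.05 and an absolute log2 fold change from 0.58 upward. All 6 members passed the filter in every comparison. CPM are on 1 TMM scale over 48 libraries (17044 genes), and log2 CPM has a prior count of 1. Levels per kb use the union of exons in GENCODE vM21. The libraries of an experiment are separate samples of 1 experiment, so p-values measure the spread between these libraries.

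Genes named are the members, the markers, Nqo1, pathway genes called for stretching (at most 4 per comparison), and the 3 genes most like each target with a mean of at least 100 counts. Fos and Egr1 were the check of stretching. Values of some genes of the pathway list are not reported here, while counts over the list include them. The genes named for the experiment codes (Aldh3a1 and Il4i1) were chosen after their values were seen. Marker levels in non-stretched myoblasts against differentiated cells (mean CPM, n = 12) were 1.58 against 882 for Myog, 2.37 against 278 for Mef2c, 1.53 against 4511 for Myh3, 0.0793 against 330.4 for Ckm, 0.553 against 382 for Tnnt1, 44.8 against 21.5 for Myf5, 110.7 against 15.1 for Id3 and 576 against 112 for Mki67. On simulated counts for myoblasts at 3 h (14813 genes, 200 changed) edgeR recovered 90% of changed genes with 4 false calls, and DESeq2 88% with 2. These counts had no difference between experiment codes, and changed genes shifted by the same size in all stretched libraries. The figures therefore do not cover shifts seen in a single experiment. Alternatives were DESeq2 1.42.0, RLE scaling, no filter, at least 10 counts in every library, the experiment code as covariate, the replicate number as a block, all libraries of a stage, and leaving out each library.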

Additional observations from a re-analysis of the deposited data

Results flagged for a closer look

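Of 72 groups of 4 libraries examined for the members, 2 had a library far from the rest by Dixon's test, where chance flags about 5% of groups. Ahr in non-stretched differentiated cells at 3 h was low in replicate 9 (59.9 CPM, nearest other library 65.2 CPM). Tiparp in stretched differentiated cells at 1 h was high in replicate 4 (129 CPM, nearest 96.0 CPM), which is the only library of experiment B17.

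In 8 comparisons of a target the stretched libraries of one experiment were on the opposite side of their non-stretched libraries from those of the other experiment of the stage. The difference between the experiments was not tested. Groups this small can separate by chance, and the share of all genes that do so was not computed, so nothing is read from the number. For Cyp1a1 the log2 values were -0.28 in B27 and 0.27 in B31 at 6 h, and -0.14 in B25 and 1.08 in B28 at 1 h, where B28 has 1 stretched library. For Cyp1b1 they were -1.26 in B27 and 0.15 in B31 at 3 h, and -0.13 in B25 and 0.0780 in B28 at 1 h. For Tiparp they were -0.27 in B27 and 0.24 in B31 at 3 h and -0.0450 and 0.0730 at 6 h. In differentiated cells Tiparp had -0.37 in B25 and 0.16 in B28 at 3 h and -0.22 and 0.21 at 6 h.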

How the results depend on the processing

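The differences between experiment codes in myoblasts (3 of 6 genes called), between stages (5 of 6) and with time (0 of 6) gave the same number of calls under every alternative run. In differentiated cells the number for the codes was 2, or 1 with all libraries of the stage, and 2 to 3 with 1 library left out, the third being Cyp1b1. Counts of called pathway genes were less stable. In differentiated cells at 1 h the count of 0 became 2 with DESeq2 and 2 without a filter (Ereg and Klf6, higher), 1 with the experiment code as covariate (Ereg) and 0 to 1 with a library left out (Ereg, without replicate 4). At 3 h the count of 2 became 1 with DESeq2, which gave Il4i1 no adjusted p, and 0 to 4 with a library left out (0 without replicate 7 of either group, 4 without non-stretched replicate 10 or stretched replicate 9). At 6 h the count of 2 became 1 with DESeq2, which gave Serpinb2 no adjusted p, and 1 to 3 with a library left out. In myoblasts it was 0 to 1 at 1 h (Ereg, higher, on leaving out replicate 7 or 8 of the non-stretched cells or 10 of the stretched) and 0 to 2 at 3 h (Epas1 and Ugt1a6a, lower, without non-stretched replicate 8). These genes were named after their values were seen. The cause was not tested.

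Same-numbered libraries showed little common deviation over genes: of 23 pairs 1 had a correlation of deviations over 0.1 (range -0.07 to 0.10). Pairs with unlike numbers were not compared and all genes weigh alike, so this check cannot settle whether replicate numbers pair the samples. With the replicate block differentiated cells had pathway counts of 2 (1 h), 2 (3 h) and 1 (6 h, Serpinb2), and 0 in myoblasts, and the counts for time and stage did not move. Of the members past the limits at 3 h, Ahrr and Cyp1a1 were past them with the block in myoblasts and Cyp1a1 alone in differentiated cells. The direction of Cyp1b1 at 3 h was turned within B31 (0.15) and, by 0.00193, within B28. Values near 0 also turned with a library left out. Of the members' pooled values for stretching, those that did so in myoblasts were of Ahrr (-0.0349 to 0.280), Cyp1a1 (-0.313 to 0.454) and Cyp1b1 (-0.262 to 0.151) at 1 h, Arnt (-0.00939 to 0.0205) and Tiparp (-0.0995 to 0.0316) at 3 h, and Cyp1a1 (-0.559 to 0.241) and Tiparp (-0.0437 to 0.0946) at 6 h. In differentiated cells they were of Cyp1b1 at 1 h (-0.0768 to 0.1197) and Tiparp at 6 h (-0.0820 to 0.0435), and Nqo1, no member, went from -0.0607 to 0.147 (1 h) and from -0.251 to 0.0324 (6 h). For time they were Cyp1a1 in myoblasts (-0.0999 to 0.0103) and, in differentiated cells, Ahr (-0.0217 to 0.00803), Arnt (-0.00146 to 0.0307), Ahrr (-0.112 to 0.0114), Cyp1a1 (-0.116 to 0.176) and Cyp1b1 (-0.0648 to 0.0708). Counts as low as 3 per library limit Cyp1a1 in stretched differentiated cells, where it was not tested at 3 h with at least 10 counts asked of every library.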
